A study of Homo sapiens with 8 samples.

Results

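The genes described here are 36 effectors of the interferon response, taken as every row of the deposited count table whose symbol is on a list of interferon-stimulated genes outside the OAS and IFIT families. All 36 were found, each in 1 of the 58870 rows, and all 36 passed the filter on low counts that left 13860 genes for testing. They were measured by RNA sequencing in Panc 10.05, a long-established line of human pancreatic cancer cells of ductal origin. The labels give 4 control libraries and 4 libraries of the same line with overexpression of ELAPOR1. The gene's full name ties it to endosomes, lysosomes, apoptosis and autophagy. The series asks what ELAPOR1 does to subtype and metabolism. No interferon treatment is named for either group. How ELAPOR1 was overexpressed, whether the cells are a pool or a clone and what the control cells carry are not given in the sources used here. Whether replicates were separate cultures is not given either, so p-values measure the spread between these libraries, which may be technical.

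Type I and type III interferons signal through JAK kinases to a transcription factor complex that contains STAT2 and IRF9 and binds the interferon-stimulated response element in the promoters of a large set of genes. The products act directly on viruses or regulate the response: ISG15 is a ubiquitin-like protein attached to other proteins, the IFITM proteins and tetherin (BST2) act at membranes, MX proteins are dynamin-like GTPases, viperin (RSAD2) makes a chain-terminating nucleotide, and several PARP enzymes modify proteins with ADP-ribose. Gamma interferon acts on a different element, the gamma-activated site. Many carcinoma lines express part of this programme without added interferon.

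Library totals ran from 13765509 to 18128757 counts. ELAPOR1, listed under its older symbol KIAA1324, had 1 to 4 counts in the control libraries and 5910 to 7368 in the ELAPOR1 libraries, so all 8 libraries matched their labels (p = 0.0286 by a two-sided exact permutation test, which with groups of 4 cannot go lower). The 8 ductal epithelial markers examined (KRT7, KRT8, KRT18, KRT19, EPCAM, CDH1, MUC1 and SOX9) were all detected and tested: SOX9 (log2 fold change 0.41), KRT7, KRT19 and CDH1 were called higher, and KRT18 (-0.36), MUC1 (-0.22) and KRT8 (-0.16) lower. Of 8 leukocyte markers, CD3E and NKG7 had no count in any library and PTPRC at most 1, while CD68 and CSF1R passed the filter; the summed level of the list was 89.0 to 96.0 CPM in the control group and 81.1 to 87.8 CPM in ELAPOR1 libraries. CD68 was called lower (log2 fold change -0.16) and CSF1R was not called. Of 7 fibroblast genes COL1A2, DCN and LUM had no count and only COL1A1 was tested, without a call, and of 4 endothelial genes CDH5 had no count and VWF, the only one tested, was lower (-1.14). The part of these markers in the results was not tested.

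Of the 36 effector genes, 27 were higher in the ELAPOR1 libraries and 1 was lower at an edgeR adjusted p-value under 0.05, the threshold for a call throughout, and 8 were not called. Over all tested genes 44.7% were called, 22.6% higher and 22.1% lower, so calls were common in this comparison. The median log2 fold change of the 36 was 0.42, beside 0.001 for all tested genes. Values of CPM (each count scaled to a common library size, adjusted by TMM) did not overlap between the groups, with ELAPOR1 above control, for 26 of the 36, beside 20.0% of all tested genes, and 1 gene lay entirely below control, beside 19.3%. On the log2 scale, 7 of the 36 (19.4%) rose by more than 1, beside 167 of all 13860 tested genes. In a test against a change of 1.5-fold, CMPK2, MX1, XAF1, IFI6, RSAD2 and SAMD9L were called higher, against 0.895% of all genes. The list was assembled with results of these libraries known, so its count is a description. In RNA from whole cultures, more cells with a response and more RNA per responding cell cannot be told apart.

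**Figure D1:**
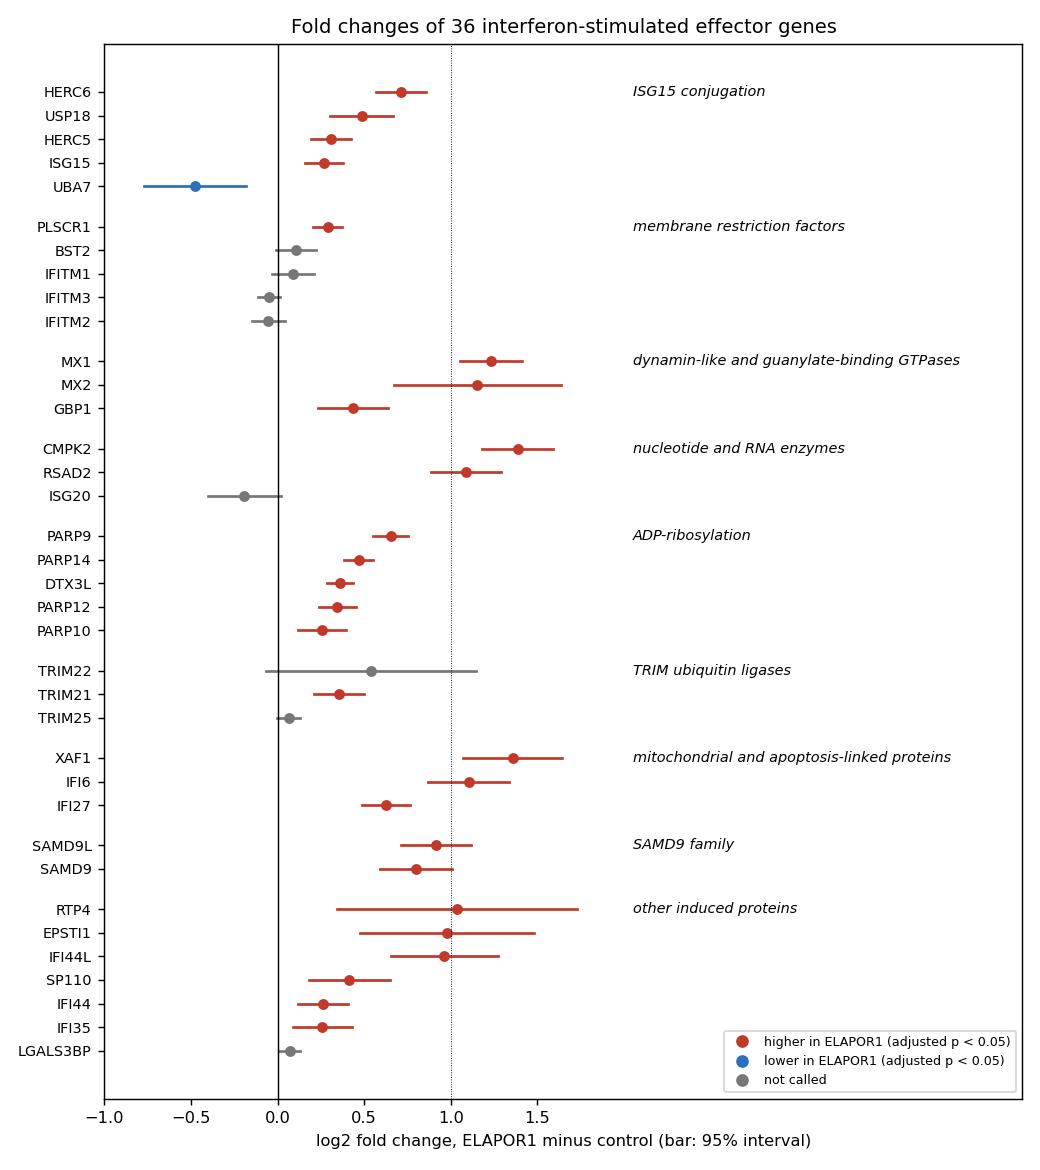
Log2 fold change (ELAPOR1 minus control, n = 4 libraries each) of the 36 genes by role, with points for the edgeR estimate and bars for its 95% interval. Red marks the 27 genes called higher, blue the 1 called lower (UBA7) and grey the 8 not called; the dotted line is a doubling.

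The start sites of the members were searched for 2 motif cores. The window runs from 250 bases before to 50 bases after each start in the RefSeq promoter table (GRCh38.p14), and 30 members matched by symbol; UBA7, USP18, IFITM2, MX2, PARP10 and TRIM22 did not. The core of the response element, GAAANNGAAA on either strand, was in a window of 23 of the 30 members (76.7%), beside 4.38% of the 27305 genes in the table and 3.97% of those tested here. The core of the gamma-activated site, TTCNNNGAA, which reads the same on both strands, was in 9 of the 30, beside 9.38% of all genes. A match is a description of letters, not a measured binding site, and list membership follows known interferon induction. Sequences are shown 5′ to 3′ on the gene's strand with matches to the response element core in capitals. The first 5 are of genes called higher, to show single, paired and shared matches. The last 3 are of genes that carry the core and were not called. Each stretch was cut around the first match in its window. The IFI6 window holds 3 matches and the IFITM1 window 2, of which only the first is shown.
MX1 (chr21:41420559-41420588, strand plus): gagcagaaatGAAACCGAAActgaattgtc
IFI6 (chr1:27672309-27672368, strand minus): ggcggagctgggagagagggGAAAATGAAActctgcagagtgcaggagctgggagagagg
IFI27 (chr14:94110608-94110667, strand plus): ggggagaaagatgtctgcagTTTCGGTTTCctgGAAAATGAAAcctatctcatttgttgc
SAMD9 (chr7:93118076-93118135, strand minus): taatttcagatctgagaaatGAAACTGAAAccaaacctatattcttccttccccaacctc
DTX3L (chr3:122564322-122564351, strand plus): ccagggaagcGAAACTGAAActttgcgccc
BST2 (chr19:17405721-17405780, strand minus): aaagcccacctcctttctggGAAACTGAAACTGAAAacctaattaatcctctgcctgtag
IFITM1 (chr11:313990-314019, strand plus): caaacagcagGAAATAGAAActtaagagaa
ISG20 (chr15:88638937-88638966, strand plus): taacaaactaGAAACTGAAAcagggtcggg

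The MX1 match shown lies 11 to 20 bases after the first of its annotated start sites. The 10 bases matched in the DTX3L window, chr3:122564332-122564341, are also the match of the neighbouring PARP9, which reads them on the other strand. Whether both genes use them was not tested, and the window of another annotated PARP9 start held no match. Of the 23 members with the core, 18 were called higher (median log2 fold change 0.36), and of the 7 without it 6 were (median 0.71). CMPK2, with the largest rise of all members, and XAF1, SAMD9L, HERC6, IFI35 and SP110 were called higher without a match in their windows; TRIM25, also without one, was not called. Among other tested genes in the promoter table, 95 of the 371 with the core (25.6%) and 24.8% of the 9512 without it were called higher.

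**Figure D2:**
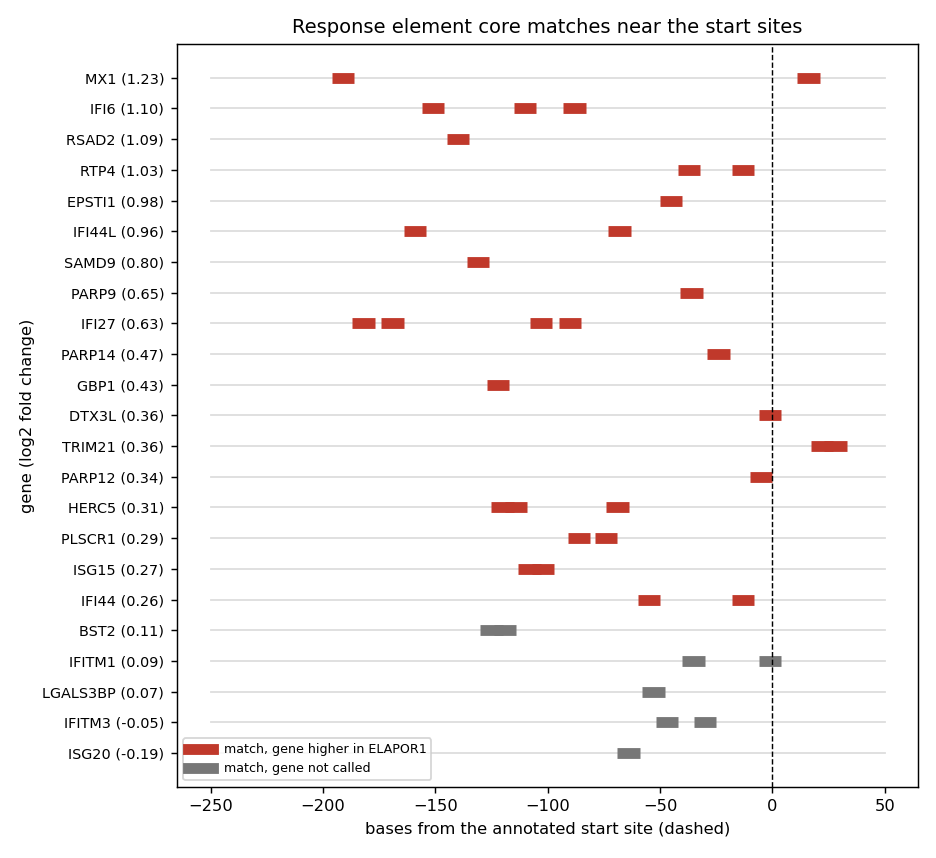
Position of each match to the response element core (bars, in bases from the annotated start site at 0) in the 23 members that hold one, ordered by log2 fold change (in brackets). A match near several annotated starts is drawn once per start; red bars belong to the 18 genes called higher and grey bars to the 5 not called (BST2, IFITM1, LGALS3BP, IFITM3 and ISG20).

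The ISG15 conjugation system held both a set of small rises and the only fall. ISG15 is activated by the E1 enzyme UBA7, transferred by the ligase HERC5 and removed by USP18, which also dampens receptor signalling; HERC6 is the close relative of HERC5. HERC6 was at 20.9, 21.3, 24.9 and 23.5 CPM in the control libraries and at 37.4, 36.1, 41.8 and 33.3 CPM in the ELAPOR1 libraries. Every ELAPOR1 library was above every control library (log2 fold change 0.71, SE 0.071, edgeR adjusted p = 4.05e-10). USP18 was at 13.97, 12.7, 11.6 and 10.2 CPM in the control libraries and at 17.3, 16.6, 17.1 and 17.0 CPM in the ELAPOR1 libraries. The groups again did not overlap (log2 fold change 0.48, SE 0.090, adjusted p = 3.47e-05), and control values spread more widely than those with ELAPOR1. About 23.4% of the 50-base words of the USP18 transcripts occur in other genes, mostly USP41, and its count was not whole in 3 libraries, so part of it may be shared. ISG15 itself changed from 48.6 ± 4.18 to 58.5 ± 2.33 CPM (SD, n = 4 each; log2 fold change 0.27, SE 0.054, adjusted p = 1.14e-04) and HERC5 from 35.1 ± 1.49 to 43.4 ± 2.65 CPM (log2 fold change 0.31, SE 0.057, adjusted p = 3.10e-05).

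UBA7 was at 5.77, 6.55, 6.11 and 5.91 CPM in the control libraries and at 4.05, 3.53, 5.47 and 4.50 CPM in the ELAPOR1 libraries. UBA7 is ENSG00000182179.13, chr3:49805207-49813946 on the minus strand, in GENCODE release 29 coordinates on GRCh38 as for the genes below. All 4 ELAPOR1 libraries lay below all 4 controls (log2 fold change -0.48, SE 0.14, adjusted p = 7.5e-03). The activating enzyme of the pathway was lower and its substrate, ligase and protease were higher. UBA7 was called lower with each library left out in turn (log2 fold change -0.59 to -0.39). Its counts were 53 to 111 per library.

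The membrane restriction factors, which block viral entry or release, were mostly not called. Of 5, only PLSCR1, a phospholipid scramblase, was called. PLSCR1 was at 99.1, 89.6, 97.0 and 92.4 CPM in the control libraries and at 111, 112, 119 and 119.6 CPM in the ELAPOR1 libraries. The groups did not overlap (log2 fold change 0.29, SE 0.040, adjusted p = 3.68e-07). The IFITM proteins, short membrane proteins that hinder fusion of viruses with endosomes, were among the members with the highest levels per length, and none was called. IFITM3 was at 282, 286, 287 and 305 CPM in the control libraries and at 284, 288, 271 and 277 CPM in the ELAPOR1 libraries (log2 fold change -0.049, 95% interval -0.11 to 0.014, edgeR adjusted p = 0.207). IFITM1 was at 43.8, 49.6, 47.0 and 48.2 CPM in the control libraries and at 50.1, 49.7, 56.9 and 44.2 CPM in the ELAPOR1 libraries (log2 fold change 0.088, interval -0.035 to 0.21, adjusted p = 0.247). IFITM2 was at 59.7, 65.2, 65.0 and 65.1 CPM in the control libraries and at 62.6, 59.8, 58.2 and 64.5 CPM in the ELAPOR1 libraries (log2 fold change -0.053, interval -0.15 to 0.042, adjusted p = 0.379). IFITM1 depended on single libraries: without ELAPOR1 replicate 3 its log2 fold change was 0.026 (adjusted p = 0.762), and without ELAPOR1 replicate 4 it was 0.15 and passed the threshold (adjusted p = 0.049). In all 3 the groups overlapped, and the upper bounds of the intervals were at most 1.16-fold. The 3 genes are neighbours on chromosome 11, where IFITM1 and IFITM2 overlap on the same strand and a gap of 4396 bases separates them from IFITM3. Between 17.4% and 34.1% of their 50-base words occur in another gene, mainly one another, and the counts of IFITM1 and IFITM3 were not whole in any library, so reads may have been divided among them and their single values are uncertain. BST2 was at 52.6, 56.7, 60.8 and 64.3 CPM in the control libraries and at 68.7, 63.4, 61.4 and 58.9 CPM in the ELAPOR1 libraries. BST2, which tethers budding virions, overlapped between groups and was not called (log2 fold change 0.11, interval -0.0070 to 0.22, adjusted p = 0.122), although its promoter holds a pair of overlapping response element cores. Without control replicate 4 BST2 passed the threshold, at a log2 fold change of 0.16 (adjusted p = 0.017), while without control replicate 1 it was at 0.053 (adjusted p = 0.425) and without ELAPOR1 replicate 1 at 0.064 (adjusted p = 0.416).

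All 3 large GTPases rose. MX1 and MX2 form ring-like oligomers that trap viral components, and GBP1 coats vacuoles and bacteria. MX1 (ENSG00000157601.14, chr21:41420304-41459214) and MX2 (ENSG00000183486.13, chr21:41361943-41409390) are neighbours on the plus strand, 10913 bases apart. MX1 was at 14.5, 12.5, 17.0 and 15.8 CPM in the control libraries and at 35.4, 31.5, 40.6 and 32.7 CPM in the ELAPOR1 libraries. Every ELAPOR1 library was far above the highest control (log2 fold change 1.23, SE 0.087, adjusted p = 5.97e-12). MX2 was at 2.11, 1.12, 2.70 and 1.65 CPM in the control libraries and at 3.99, 2.79, 5.76 and 4.38 CPM in the ELAPOR1 libraries. The groups did not overlap (log2 fold change 1.15, SE 0.24, adjusted p = 1.90e-04), though MX2 rests on 19 to 80 counts per library. GBP1 rose from 9.54 ± 0.867 to 12.9 ± 1.24 CPM (SD, n = 4 each; log2 fold change 0.43, SE 0.099, adjusted p = 4.95e-04).

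Among nucleotide and RNA enzymes, the gene pair CMPK2 and RSAD2 rose, and ISG20 was not called. CMPK2 is a mitochondrial nucleotide kinase that supplies substrate to viperin, the product of RSAD2, and the genes lie head to head on chromosome 2, sharing 14 exonic bases. CMPK2 is ENSG00000134326.11, chr2:6840570-6866635 (minus strand) and RSAD2 is ENSG00000134321.12, chr2:6865806-6898239 (plus strand). CMPK2 was at 8.70, 7.14, 8.87 and 7.93 CPM in the control libraries and at 21.97, 18.4, 25.4 and 19.7 CPM in the ELAPOR1 libraries. RSAD2 was at 12.8, 8.62, 12.8 and 9.45 CPM in the control libraries and at 22.3, 22.4, 24.2 and 24.2 CPM in the ELAPOR1 libraries. The lowest ELAPOR1 library was above the highest control for both (log2 fold change 1.38, SE 0.099, adjusted p = 2.19e-13 for CMPK2; log2 fold change 1.09, SE 0.099, adjusted p = 4.02e-10 for RSAD2). ISG20 was at 11.2, 11.4, 13.8 and 15.9 CPM in the control libraries and at 11.5, 10.7, 12.7 and 10.9 CPM in the ELAPOR1 libraries. ISG20, a 3′ to 5′ exonuclease for single-stranded RNA, overlapped between groups (log2 fold change -0.19, interval -0.40 to 0.019, adjusted p = 0.135). Control values of ISG20 ranged widely, and without control replicate 1 ISG20 and IFITM3 were both called lower.

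**Figure D3:**
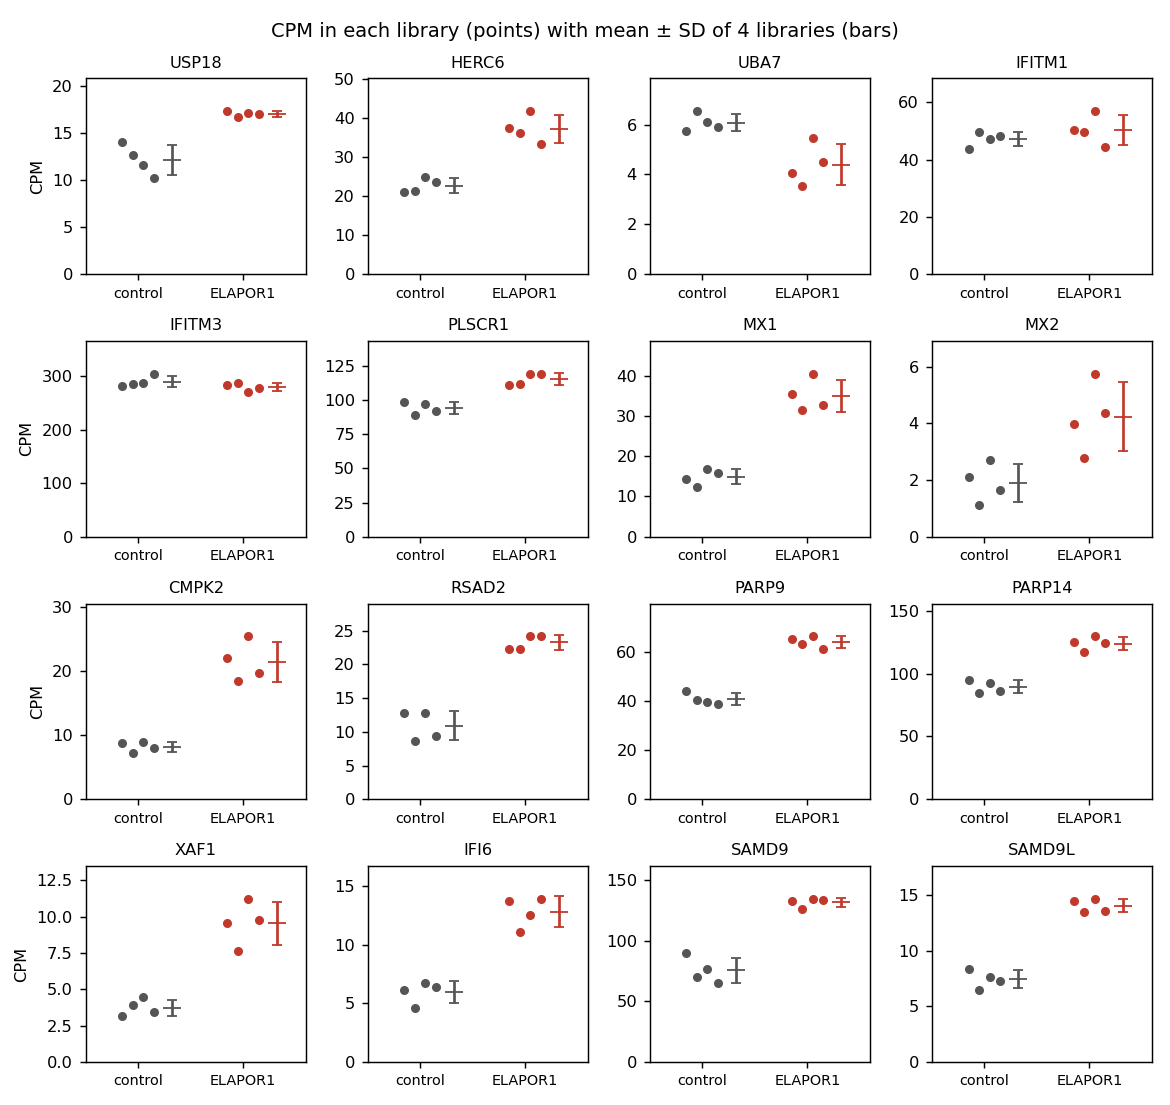
CPM of 16 members in each library (points; replicates 1 to 4 from left to right) with the mean and SD of each group beside them, each axis starting at 0. MX1, CMPK2, RSAD2, XAF1, IFI6 and SAMD9L are separated widely, whereas IFITM1 and IFITM3 overlap and UBA7 is lower with ELAPOR1.

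All 5 genes of ADP-ribosylation were called higher. PARP9 forms a complex with the ubiquitin ligase DTX3L, and PARP10, PARP12 and PARP14 transfer ADP-ribose to proteins. PARP9 was at 44.1, 40.2, 39.5 and 38.7 CPM in the control libraries and at 65.4, 62.9, 66.3 and 61.2 CPM in the ELAPOR1 libraries. PARP14 was at 94.9, 84.5, 92.7 and 86.4 CPM in the control libraries and at 125, 117, 129.8 and 124 CPM in the ELAPOR1 libraries. Neither overlapped between groups (log2 fold change 0.65, SE 0.051, adjusted p = 1.22e-12 for PARP9; log2 fold change 0.47, SE 0.042, adjusted p = 3.02e-11 for PARP14). DTX3L, which shares its start region with PARP9, rose from 113 ± 5.36 to 145 ± 3.68 CPM (SD, n = 4 each; log2 fold change 0.36, interval 0.28 to 0.44), beside an interval of 0.55 to 0.76 for PARP9; the difference between the pair was not tested. PARP12 changed by 0.34 (adjusted p = 1.36e-06) and PARP10 by 0.26 (adjusted p = 2.7e-03) on the log2 scale. PARP10 shares 324 exonic bases with the abundant GRINA on the opposite strand. PARP9 and DTX3L, also on opposite strands, share 217 (2.4% of the PARP9 and 3.7% of the DTX3L exonic length). With no statement of strand-specific counting, the values of PARP10, PARP9 and DTX3L are uncertain.

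Of the TRIM ubiquitin ligases only TRIM21, a cytosolic antibody receptor, was called. TRIM21 was at 18.5, 19.1, 16.9 and 19.0 CPM in the control libraries and at 23.1, 22.8, 23.3 and 24.7 CPM in the ELAPOR1 libraries. The groups did not overlap (log2 fold change 0.36, SE 0.071, adjusted p = 9.96e-05). TRIM22 was at 0.887, 0.767, 1.02 and 1.10 CPM in the control libraries and at 1.10, 1.26, 1.37 and 1.73 CPM in the ELAPOR1 libraries. TRIM22, a nuclear restriction factor, did not overlap either, by a margin of 1.097 CPM in the highest control to 1.105 CPM in the lowest ELAPOR1 library, but rested on 13 to 30 counts per library and was not called (log2 fold change 0.54, interval -0.069 to 1.15, adjusted p = 0.145). TRIM25, which activates the RNA sensor RIG-I, was at 165 ± 3.82 CPM in control and 173 ± 3.61 CPM with ELAPOR1 (SD, n = 4 each) and was not called (log2 fold change 0.064, interval -0.0024 to 0.13, adjusted p = 0.111).

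The mitochondrial and apoptosis-linked genes all rose. XAF1 binds and antagonises the caspase inhibitor XIAP, while IFI6 and IFI27 are small membrane proteins of 1 family, of which IFI6 is known to restrain cell death. XAF1 is ENSG00000132530.17, chr17:6755447-6775647 on the plus strand and IFI6 is ENSG00000126709.15, chr1:27666061-27672218 on the minus strand. XAF1 was at 3.16, 3.89, 4.43 and 3.41 CPM in the control libraries and at 9.58, 7.65, 11.2 and 9.75 CPM in the ELAPOR1 libraries. IFI6 was at 6.15, 4.603, 6.71 and 6.40 CPM in the control libraries and at 13.7, 11.04, 12.5 and 13.9 CPM in the ELAPOR1 libraries. In both, every ELAPOR1 library was above every control (log2 fold change 1.36, SE 0.14, adjusted p = 7.84e-10 for XAF1; log2 fold change 1.10, SE 0.12, adjusted p = 1.10e-09 for IFI6). IFI27 rose from 24.2 ± 2.67 to 37.3 ± 2.01 CPM (SD, n = 4 each; log2 fold change 0.63, SE 0.069, adjusted p = 2.86e-09).

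SAMD9 and SAMD9L, neighbouring genes on chromosome 7 whose products restrict poxviruses and restrain translation and growth, rose together. SAMD9 was at 89.9, 70.3, 76.9 and 65.5 CPM in the control libraries and at 133, 126, 135 and 134 CPM in the ELAPOR1 libraries. SAMD9L was at 8.37, 6.43, 7.67 and 7.32 CPM in the control libraries and at 14.5, 13.5, 14.7 and 13.6 CPM in the ELAPOR1 libraries. Neither overlapped between groups (log2 fold change 0.80, SE 0.089, adjusted p = 1.25e-04 for SAMD9; log2 fold change 0.91, SE 0.099, adjusted p = 2.30e-09 for SAMD9L). SAMD9 was the largest rise among the 11 members with a mean above 50 CPM, and its spread was larger in control than in ELAPOR1 libraries.

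Of the other 7 induced proteins, 6 were called higher. RTP4 was at 0.499, 0.708, 0.959 and 0.488 CPM in the control libraries and at 1.47, 0.865, 1.87 and 1.27 CPM in the ELAPOR1 libraries. EPSTI1 was at 1.996, 1.30, 1.02 and 1.22 CPM in the control libraries and at 3.25, 2.20, 2.81 and 2.71 CPM in the ELAPOR1 libraries. RTP4, a receptor transport protein, overlapped between the groups with 8 to 26 counts per library (log2 fold change 1.03, SE 0.34, adjusted p = 0.013), and EPSTI1, named for its induction in epithelial cells by stroma, did not overlap (log2 fold change 0.98, SE 0.25, adjusted p = 1.4e-03). IFI44 and IFI44L, adjacent relatives on chromosome 1, were both called. IFI44L went from 6.02 ± 1.57 to 11.7 ± 1.58 CPM (SD, n = 4 each, log2 fold change 0.96, interval 0.65 to 1.27). IFI44 went from 27.9 ± 3.24 to 33.5 ± 2.59 CPM (SD, n = 4 each, log2 fold change 0.26, interval 0.12 to 0.41). The difference between the pair was not tested. SP110, a nuclear body protein, changed by 0.41 (adjusted p = 3.4e-03) and IFI35 by 0.26 (adjusted p = 0.012). Without ELAPOR1 replicate 3, RTP4 and IFI35 lost their calls (adjusted p = 0.065 and 0.058). LGALS3BP, a secreted glycoprotein that binds galectins, had the second highest level per length and was not called, at 408 ± 17.9 CPM in control and 428 ± 7.56 CPM with ELAPOR1 (log2 fold change 0.069, interval 0.0067 to 0.13, adjusted p = 0.066).

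Levels can be compared between genes only per length, here as CPM per kilobase of annotated exonic sequence in GENCODE release 29. That sequence joins the exons of all annotated transcripts of a gene (13047 bases for MX2). It can be longer than the RNA present, which lowers the value, so the order of genes is approximate. In control libraries the highest were IFITM3 (215), LGALS3BP (114), BST2 (52.4), ISG15 (51.6), IFITM1 (43.7) and IFITM2 (41.3), and of these 6 only ISG15 was called. The lowest were MX2 (0.145), TRIM22 (0.157), EPSTI1 (0.281), RTP4 (0.427) and XAF1 (0.563), of which TRIM22 was not called. Split by mean CPM over all libraries, the 9 members under 10 CPM had a median of 0.98 on the log2 scale, the 16 from 10 to 50 CPM one of 0.40 and the 11 above 50 CPM one of 0.27. The same medians over all tested genes were -0.037, -0.003 and 0.019. Without regard to sign, the medians over all tested genes were 0.297, 0.155 and 0.135, so larger changes at low levels were not particular to the members. The 95% intervals were wide at low counts: 0.67 to 1.63 for MX2, 0.48 to 1.48 for EPSTI1 and 0.34 to 1.73 for RTP4.

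**Figure D4:**
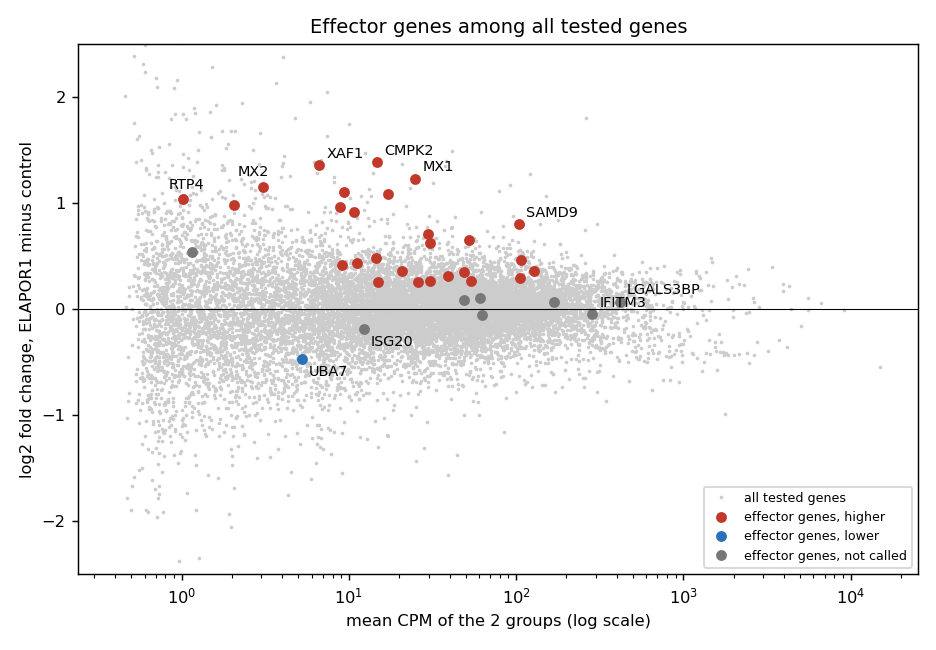
Log2 fold change (ELAPOR1 minus control) against the mean CPM of both groups on a log axis for all tested genes other than ELAPOR1 (grey dots, of which 33 lie beyond the axis limit of 2.5) and for the 36 members (large points, coloured by call). All 27 members called higher lie above 0 and UBA7 lies below it, and IFITM3 and LGALS3BP, the members with the highest CPM, lie close to 0.

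Genes around the members were examined as a local background. For each member, up to 10 tested genes on either side with a mean of at least 5 CPM, interferon genes left out, had a median log2 fold change between -0.11 and 0.15. The medians near the upper end were those around SP110, RSAD2, CMPK2 and IFI35. IFI35, with its own log2 fold change of 0.26, lies among neighbours with a median of 0.13; whether the gene differs from its neighbours was not tested.

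Control replicate 1 stood somewhat apart from the other controls: over tested genes with at least 25 counts in a pair, the chi-square per degree of freedom between it and each of them was 3.45, 3.64 and 6.22, beside 2.13 to 3.04 among the other controls and 1.94 to 2.19 among ELAPOR1 libraries. Without it the median log2 fold change of the members was 0.48, and the calls of ISG20 and IFITM3 were the only ones added. Of the 27 members called higher, 13 had their lowest control value in control replicate 2, and 16 had their lowest ELAPOR1 value in ELAPOR1 replicate 2, while 17 had their highest in ELAPOR1 replicate 3. The mean log2(CPM + 1) of these 27 lay between 3.96 and 4.14 for the control group and between 4.58 and 4.78 for the ELAPOR1 group. Their mean deviation from the group mean on that scale was 0.063, -0.107, 0.072 and -0.029 in control replicates 1 to 4 and 0.018, -0.099, 0.098 and -0.017 in ELAPOR1 replicates 1 to 4, the same order of numbers in both groups.

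Other genes of the pathway were read from lists of ligands, receptors and signalling proteins, sensors, OAS and IFIT genes and genes induced mainly by gamma interferon. Of 21 interferon ligand genes, 17 had no count in any library and only IFNE, an epithelial type I interferon, was tested. IFNE was at 2.88, 3.01, 1.98 and 2.99 CPM in the control libraries and at 5.65, 4.99, 5.83 and 3.17 CPM in the ELAPOR1 libraries. The groups did not overlap (log2 fold change 0.84, SE 0.19, adjusted p = 5.13e-04), while IFNB1 had at most 2 counts and IFNL1 at most 5 in a library. Of 16 tested receptor and signalling genes, 3 were higher, 3 lower and 10 not called. The shares over all tested genes were 22.6% higher and 22.1% lower. IRF9, a DNA-binding component of the complex that acts on the response element, rose from 20.2 ± 1.86 to 30.1 ± 1.45 CPM (SD, n = 4 each; log2 fold change 0.57, SE 0.071, adjusted p = 3.32e-08). STAT2, another component, was slightly lower, at 82.5 ± 2.37 CPM in control and 74.7 ± 3.71 CPM with ELAPOR1 (log2 fold change -0.14, SE 0.043, adjusted p = 6.6e-03), and so were the feedback inhibitor SOCS3 (-0.38, adjusted p = 1.01e-06) and the gamma interferon receptor chain IFNGR2 (-0.19, adjusted p = 0.046).

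Of 12 tested nucleic acid sensors and adaptors, 7 were higher and 1 lower, with a median log2 fold change of 0.33. For this list and those below, the shares over all tested genes were again 22.6% higher and 22.1% lower. AIM2, a DNA sensor, changed by 1.23 (adjusted p = 7.06e-05) and IFIH1, the RNA sensor MDA5, by 0.76 (adjusted p = 6.95e-13), whereas TMEM173, the adaptor STING, fell by 0.28 on the log2 scale (adjusted p = 9.16e-06). The OAS and IFIT families, which sense and bind viral RNA, had 7 of 8 tested genes higher with a median of 0.81, led by OAS2 at 1.49 and IFIT1 at 1.17. Of 11 genes induced mainly by gamma interferon, 5 were tested. GBP4 was higher (0.53, adjusted p = 1.09e-04), GBP2 lower (-0.36, adjusted p = 0.031) and TAP1, PSMB8 and PSMB9 not called. The median of the 5 was 0.051, and the rest of the list fell below the filter and is not part of it.

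**Figure D5:**
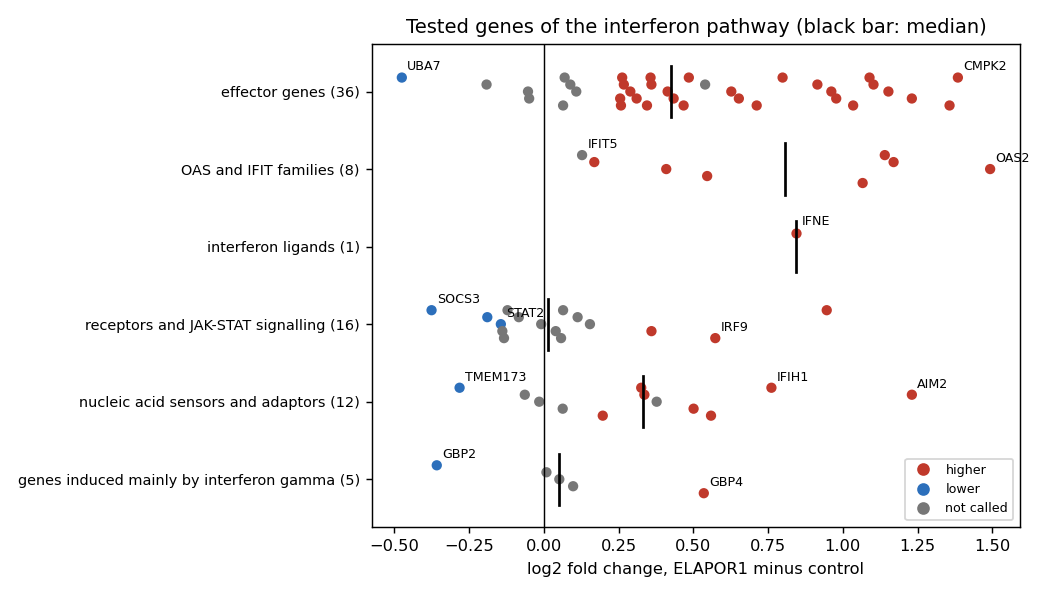
Log2 fold change (ELAPOR1 minus control) of each tested gene in the 36 effector genes and the 5 pathway lists (points coloured by call, vertical position within a row only for spacing; black bars are medians). Medians were 0.42 for the effector genes, 0.81 for OAS and IFIT genes, 0.33 for sensors, 0.051 for genes induced mainly by gamma interferon and 0.015 for receptors and signalling genes; the ligand row holds only IFNE.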

How the data were processed

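RNA from 4 control and 4 ELAPOR1 libraries was sequenced, and the authors deposited 1 table of expected counts per gene, which the values show to be unscaled. Those expected counts were made by the authors with tools that, per the submitters' processing notes, included cutadapt, STAR, RSEM and DESeq2 on the build hg38; versions, annotation release and use of strand are not given in the sources used here. Of nonzero values 15.0% were not whole. The counts were rounded, then compared between groups in R 4.3.3 by edgeR 4.0.16 (filterByExpr, TMM, robust quasi-likelihood test, no covariate, two-sided), with Benjamini-Hochberg adjustment over all 13860 tested genes. The SE is the log2 fold change divided by the square root of F. The procedure was also run on counts simulated from its own model with few genes changed, which does not measure its errors where many genes change. Gene models are GENCODE release 29 (GRCh38), in which 58597 of 58870 identifiers were found without version; promoters are RefSeq's. No protein table was used, so no protein identity was computed.

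Members and lists were chosen with earlier results of these data known. Values in every library are given for the 2 largest changes in each role, every member called lower, and neighbouring pairs that differ in call or direction; ISG20 was added after its values were seen. In each related list the 2 largest called changes and called genes against the list's median are named, except items not reported here. Replicate numbers are shared between groups, but same-numbered libraries did not deviate together over all tested genes (correlations -0.038 to 0.020), though the mean deviations of the members called higher fell in the same order of numbers in both groups. By the all-gene correlations, numbers were not treated as pairs. Alternatives were other scalings (DESeq2 size factors, total counts, upper quartile), DESeq2 1.42.0, limma-voom (limma 3.58.1), other filters, a replicate block, each library left out, ELAPOR1 left out, stricter thresholds and non-robust dispersion. Plots used matplotlib 3.10.9.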

Additional observations from a re-analysis of the deposited data

Results flagged for a closer look

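In 72 groups of 4 libraries (36 genes, 2 groups each) a single library was sought whose gap to the nearest other exceeded Dixon's 95% critical share of the group's range; chance flags about 3.6 of 72, and 1 was found. Control replicate 1 held IFITM2 at 59.7 CPM, whereas its 3 fellow libraries ranged from 65.0 to 65.2 CPM, a gap of 0.968 of the range. ELAPOR1 libraries were at 58.2 to 64.5 CPM, so this library lies inside their range. No explanation was tested.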

How the results depend on the processing

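Under DESeq2 size factors, upper-quartile scaling, the DESeq2 Wald test, limma-voom, no filter, ELAPOR1 left out and non-robust dispersion the same 28 members were called, as with the replicate number as a block (27 higher, 1 lower, median log2 fold change 0.43), although the numbers did not pair the libraries over all genes. Total counts added TRIM25 and LGALS3BP. An adjusted p-value under 0.01 removed IFI35 and RTP4, and a minimum of 10 counts in every library left RTP4 untested. The test against a 1.5-fold change called 6 members higher and 0 lower, and 215 of all genes. With each library left out in turn, 25 to 29 members were called higher and 1 to 3 lower, the 3 without control replicate 1 (UBA7, IFITM3 and ISG20); BST2 and LGALS3BP were added without control replicate 4 and IFITM1 without ELAPOR1 replicate 4, and the median ran from 0.39 to 0.48. No member changed sign in 719 values over the alternatives. The values under an adjusted p-value of 0.01 and under the 1.5-fold test keep the main fold changes, so those could not change sign. At 13765509 to 18128757 counts per library, changes of TRIM22, RTP4, EPSTI1 and MX2 are measured from at most 80 counts per library.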

Other observations

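Several interferon-induced genes outside the effector list fell below the filter and were not tested. CXCL10, a chemokine for T cells, had 2 counts over the 4 control libraries and 22 over the 4 ELAPOR1 libraries. Its counts were 2, 0, 0 and 0 in control replicates 1 to 4 and 13, 5, 1 and 3 in ELAPOR1 replicates 1 to 4. The CPM of CXCL10 overlapped between groups. CXCL11, a related chemokine, had totals of 12 and 48 counts, and its CPM did not overlap between groups (0.176 ± 0.0664 in control and 0.788 ± 0.391 with ELAPOR1, SD, n = 4 each). GBP5, a guanylate-binding protein, had 21 and 47 counts, the DNA and RNA sensor ZBP1 had 3 and 17, and the JAK inhibitor SOCS1 had 10 and 24. CIITA, the activator of MHC class II genes, had 34 and 22, and IRF7, which amplifies type I interferon, had 1 and 0. CXCL9 had no count in any library, which leaves no value to compare.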
